A study of Mus musculus with 14 samples.

Results

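miR-375, miR-7a and miR-7b are microRNAs (miRNAs) known from neuroendocrine cells, that is, from hormone-secreting cells and neurons. They were taken by name as the rows mmu-miR-375, mmu-miR-7a and mmu-miR-7b of the deposited count table, which makes 3 of 1046 names. The table covers pancreas and liver, the digestive tract (oesophagus, stomach, small intestine, colon), brain and cerebellum, ovary and uterus, and spleen, kidney, heart and lung. All came from C57BL/6J mice, an inbred laboratory strain, and the labels name no treatment, age or sex. Each tissue is 1 small RNA library made from RNA pooled over animals, and the labels give both 5 and 10 as the number of mice. With 1 library per tissue there is no replicate and no test between tissues, and every interval below is a 95% interval that covers counting error only.

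A miRNA guides silencing proteins to messenger RNAs that pair with its seed, bases 2 to 8 counted from the 5′ end. miR-375 is known as an abundant miRNA of pancreatic islets, where it restrains insulin release, and it is also known from endocrine cells of the gut. miR-7 is known from islets and from neurons, and in brain it is bound by the circular RNA Cdr1as. miR-7a is made from a pair of hairpin genes, Mir7-1 and Mir7-2, and miR-7b from Mir7b. An older name with a star marks the opposite arm of the same hairpin.

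The mature sequences show how miR-7a and miR-7b can be told apart, and which star arm belongs to which hairpin gene. RefSeq (GRCm38.p6) held mature entries for 6 of the 7 names of these hairpins, and mmu-miR-375 was the name without one. Capitals mark the seed.
miR-7a (from Mir7-1 and Mir7-2): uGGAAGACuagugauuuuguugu
miR-7b (from Mir7b): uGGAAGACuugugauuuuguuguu
miR-7a-1* (from Mir7-1): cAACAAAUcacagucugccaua
miR-7a-2* (from Mir7-2): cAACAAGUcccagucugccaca
miR-7b* (from Mir7b): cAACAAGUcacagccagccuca

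miR-7a and miR-7b carried the same seed, GGAAGAC, and no other mature name of the RefSeq table had it (2 of 1679 names). Over the 23 bases of miR-7a they differed by 1 substitution, A10U with miR-7a as the reference and positions counted from the 5′ end, and miR-7b had 1 more base at its 3′ end. A read that spans position 10 therefore tells them apart. The star arms of the miR-7a hairpins differed by 3 substitutions (A7G, A10C and U21C, with miR-7a-1* as the reference), so that their reads can be assigned to a hairpin gene, while reads of miR-7a itself cannot. How the authors assigned reads of near-identical names is not given in the sources used here.

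On GRCm38.p6, RefSeq places Mir375 at chr1:74900658-74900721 on the minus strand and Mir7b at chr17:56242988-56243098 on the plus strand. Mir7-2 lies at chr7:78888277-78888373 on the plus strand. No other GENCODE M21 gene overlapped these 3 hairpins. Mir7-1 lies at chr13:58392779-58392886 on the minus strand, inside an intron of Hnrnpk, a gene for an RNA-binding protein, on the same strand. The count table holds no coordinates.

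Levels are given as RPM, the reads of a name per 1000000 miRNA reads of a library, except where miR-143 is said to be left out of the total. Library totals ran from 622132 reads in pancreas to 9341000 in small intestine. miR-143, which is known from smooth muscle, took between 4.01% and 98.7% of a library, so it moves the RPM of every other name. Its share was 98.7% for the colon label, 87.1% for ovary, 70.2% for stomach, 56.8% for the uterus label and 53.6% for small intestine. The library labelled colon held 25.2 RPM of miR-192, miR-194 and miR-215 together, which are known from intestinal epithelium, against 78772 RPM in the library labelled uterus and 212864 RPM in small intestine. Liver (50857 RPM) and kidney (23481 RPM) also held much of miR-192 and miR-194. The colon and uterus libraries are therefore named by their labels, and whether the labels are right was not tested. In pancreas, miR-148a held 62.6% of the reads. In bulk tissue, fewer cells of a type and less RNA per cell cannot be told apart.

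miR-375 stood high in 4 libraries and low in the other 10. It reached 344 RPM (331–356) under the uterus label, 247 RPM (237–257) in small intestine, 157 RPM (149–166) in stomach and 154 RPM (125–188) in pancreas. The values rest on 2988, 2309, 1325 and 96 reads. Next came lung with 21.6 RPM (18.0–25.6), 7.16-fold (5.44–9.40) below pancreas with all reads in the total.

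Among the other 10 libraries, cerebellum held 15.9 RPM of miR-375, brain 9.40, kidney 7.58, heart 5.33 and oesophagus 2.09. Liver had 0.473 RPM from 3 reads, the library labelled colon 0.300 RPM from 2 reads and spleen 0.206 RPM from 1 read. Ovary had no read, which allows up to 1.32 RPM, the value of 3 reads there. The star arm, miR-375*, had 0 reads in all 14 libraries.

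Order alone does not separate all of these libraries. Of the 13 neighbouring pairs in the order of miR-375, 8 had a fold interval that held 1, among them stomach over pancreas at 1.02-fold (0.827–1.27) and cerebellum over brain at 1.69-fold (0.926–2.94). The library labelled uterus stood 1.39-fold (1.32–1.47) above small intestine, and small intestine 1.57-fold (1.47–1.69) above stomach.

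With miR-143 left out of the total, the same 4 libraries led for miR-375. It stood at 796 RPM (768–825) under the uterus label, with small intestine at 533 RPM (511–555), stomach 528 RPM (499–557) and pancreas 161 RPM (130–196). Small intestine and stomach were then level, at 1.01-fold (0.944–1.08), and stomach stood 3.28-fold (2.67–4.08) above pancreas. The step from pancreas down to lung, at 55.4 RPM, was then 2.90-fold (2.20–3.81), smaller than that from stomach to pancreas. The place of pancreas depended on the total. Its own leading name, miR-148a, held most of its reads, and with miR-143 and miR-148a both left out pancreas reached 462 RPM against 547 RPM in stomach. With median-of-ratios scaling pancreas came first, at 479 scaled RPM against 315 for the uterus label.

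Ranks within a library do not depend on any total. miR-375 was the 44th most abundant name in pancreas, the 50th under the uterus label, the 66th in small intestine and the 80th in stomach. It ranked 166th in lung, 325th in brain and 433rd in spleen. Pancreas had 240 names with reads, against 524 to 567 in those other 3 leading libraries, at a total that was also the lowest of all libraries.

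**Figure D1:**
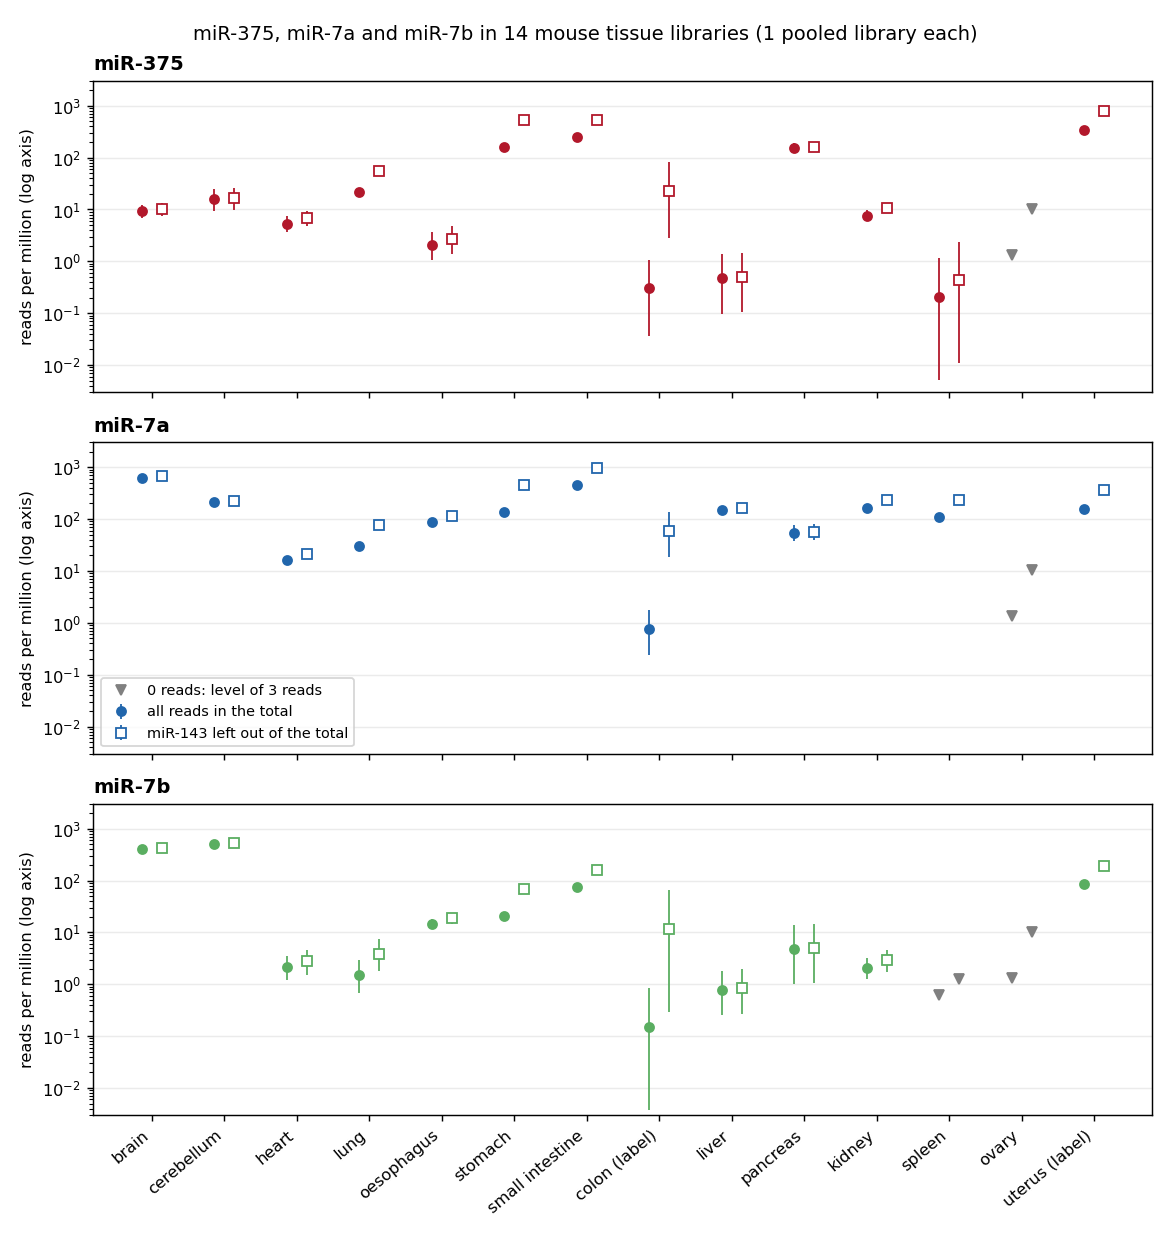
Level of miR-375, miR-7a and miR-7b in each of the 14 libraries, in RPM on a log axis. Filled circles use all miRNA reads as the total and open squares leave miR-143 out of it, bars are exact Poisson 95% intervals, and grey triangles give the level of 3 reads where a library had 0. miR-375 stands high in pancreas, stomach, small intestine and the library labelled uterus, miR-7a is spread over most tissues, and miR-7b is high in brain and cerebellum.

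miR-7a was the most widely present of these miRNAs. On the scale of all reads it reached 623 RPM (602–644) in brain and 447 RPM (433–460) in small intestine. It held 213 RPM (187–242) in cerebellum, 167 RPM in kidney, 159 RPM in the library labelled uterus, 152 RPM in liver, 135 RPM in stomach and 110.2 RPM in spleen. These 8 libraries exceeded 100 RPM.

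Lower levels of miR-7a were found in oesophagus at 88.0 RPM, pancreas at 54.7 RPM (37.8–76.4), lung at 29.8 RPM and heart at 16.4 RPM. The library labelled colon had 0.749 RPM from 5 reads, and ovary had 0 reads. With all reads, pancreas stood below 9 other libraries on 34 reads, 2.77-fold (1.97–4.03) below liver and 11.4-fold (8.14–16.5) below brain.

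This place of pancreas depended on the total, as it did for miR-375. With miR-143 and miR-148a both left out, pancreas held 163 RPM of miR-7a and liver 165 RPM, against 666 RPM in brain. With median-of-ratios scaling pancreas held 169.7 scaled RPM, above liver at 164 and below only small intestine at 372 and brain at 228. The median over the libraries was 74.6 on that scale, so miR-7a in pancreas lay above its median there and below it with all reads (54.7 against 122.6 RPM).

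The leading tissue of miR-7a depended on the total. Brain stood 1.39-fold (1.33–1.46) above small intestine with all reads, but small intestine stood 1.45-fold (1.38–1.52) above brain with miR-143 left out, at 963 RPM against 665 RPM. Small intestine also led with median-of-ratios scaling (372 against 228 scaled RPM) and with the 5 most abundant names of each library left out (3396 against 1805 RPM). By rank within a library, miR-7a was 50th in small intestine, 57th in liver, 66th in pancreas and 70th in brain.

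On the scale without miR-143, miR-7a stood at 453 RPM in stomach, 369 RPM in the library labelled uterus and 229 RPM in spleen. Liver changed little, from 152 to 162 RPM, because miR-143 held only 6.14% of its reads. Ovary had 292350 reads other than miR-143, and 0 reads of miR-7a allow up to 10.3 RPM on that scale. Heart, the lowest library with more than 5 reads, held 20.9 RPM, which was 2.04-fold above the value of 3 reads in ovary. With the counting error of heart included, the lower limit of the fold of heart over ovary was 1.63. With all reads in the total, heart stood 12.4-fold above the value of 3 reads in ovary.

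Neighbours in the order of miR-7a were mostly distinct within counting error. Only 3 of 13 neighbouring pairs had an interval that held 1, namely kidney with the library labelled uterus, that library with liver, and the library labelled colon with ovary. The deeper counts of this miRNA (14076 reads over all libraries, against 7038 for miR-375 and 4441 for miR-7b) make its intervals narrower.

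miR-7b was highest in the libraries of the nervous system. It reached 516 RPM (475–560) in cerebellum and 399 RPM (382–416) in brain, from 586 and 2121 reads. The next library, that labelled uterus, held 84.2 RPM (78.2–90.5), 4.74-fold (4.36–5.16) below brain. Small intestine followed with 75.0 RPM (69.6–80.8), stomach with 20.5 RPM and oesophagus with 14.5 RPM.

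All other libraries held under 5 RPM of miR-7b. Pancreas had 4.82 RPM (0.994–14.1) from 3 reads, heart 2.16, kidney 2.06, lung 1.52, liver 0.788 and the library labelled colon 0.150 from 1 read. Spleen and ovary had 0 reads, which allow up to 0.618 and 1.32 RPM. In spleen this stood beside 535 reads of miR-7a, and in liver 5 reads of miR-7b stood beside 962 of miR-7a.

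With miR-143 left out, cerebellum (541 RPM) and brain (426 RPM) still led for miR-7b, and the gap to the library labelled uterus (195 RPM) and small intestine (162 RPM) narrowed. Cerebellum exceeded brain by 1.29-fold (1.18–1.42) with all reads and by 1.27-fold (1.16–1.39) without miR-143. For miR-7a the same pair went the other way, brain standing 2.92-fold (2.56–3.34) above cerebellum with all reads and 2.98-fold (2.61–3.41) without miR-143. Of the 12 neighbouring pairs in the order of miR-7b, 7 had an interval that held 1, all of them from oesophagus downwards.

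**Figure D2:**
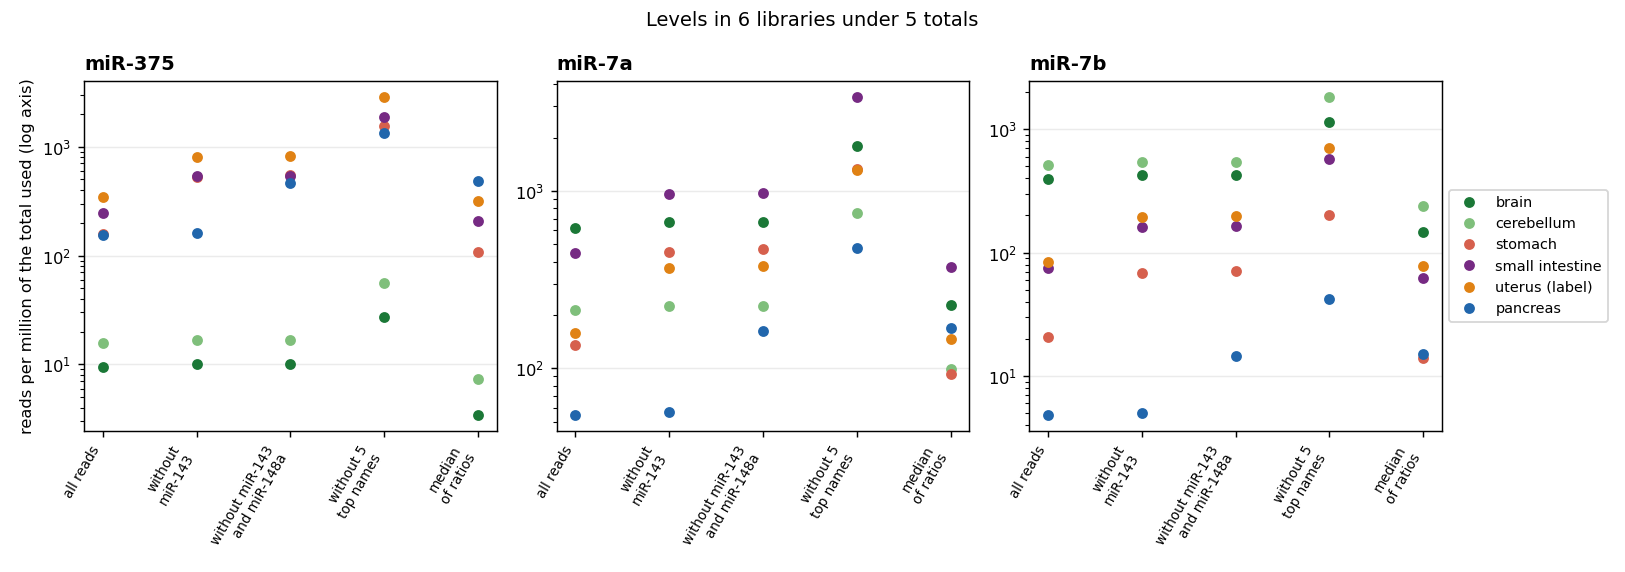
Levels of miR-375, miR-7a and miR-7b in 6 libraries (colours) under 5 totals, in RPM of the total used, on log axes. Pancreas moves from 154 to 479 for miR-375 between all reads and median-of-ratios scaling, small intestine passes brain for miR-7a under every total other than all reads, and cerebellum stays above brain for miR-7b under all 5.

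Rules of size show how the members compare with other names. Tissue-enriched names were those with 100 RPM or more in the top library and a ratio of 5 or more to the next library, after 1 RPM was added to both. None of the 3 miRNAs met this rule, whereas 44 of 418 names that reached 10 RPM anywhere did (10.5%, and 8.75% of 457 names with miR-143 left out). The ratios of the first to the second library were 1.39 for miR-375, 1.39 for miR-7a and 1.29 for miR-7b. Each was thus shared by more than 1 library. For miR-7b the first and second libraries were cerebellum and brain, both of the nervous system, and the rule compares only these. Brain stood 4.74-fold above the next library, that labelled uterus, for miR-7b with all reads in the total. This fold fell to 2.18 (2.01–2.38) with miR-143 left out. With median-of-ratios scaling brain held 146 scaled RPM against 77.2 under the uterus label.

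The specificity index tau runs from 0 for an even profile to 1 for a single tissue, and it was computed on log2(RPM + 1). It was 0.607 for miR-375, 0.382 for miR-7a and 0.677 for miR-7b, against a median of 0.640 over the 418 names. Thus 53.8% of names were more specific than miR-375, 81.8% more than miR-7a and 45.0% more than miR-7b. None of the members reached 0.85, which 21.3% of names did (14.9% with miR-143 left out).

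A name was called raised in a library at 100 RPM or more there and 4 times or more the median of the other 13 libraries, again with 1 RPM added. By this rule miR-375 was raised in the library labelled uterus (40.1 times the median of 7.58 RPM), small intestine (28.9 times), stomach (18.4 times) and pancreas (18.1 times). The shares of all 418 names raised there were 3.83%, 5.5%, 5.5% and 2.87%. With miR-143 left out the same 4 calls were made, at 67.7, 45.4, 44.9 and 13.8 times, against background shares of 4.16%, 6.56%, 9.41% and 1.97%. Lung, at 4.80 times the median but 55.4 RPM, missed the minimum level.

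miR-7b was raised in cerebellum (164 times its median of 2.16 RPM) and brain (126 times), where 21.1% and 23.9% of all names were raised. A call in brain or cerebellum is thus common among names. With miR-143 left out, miR-7b was also raised in small intestine (27.0 times, background share 6.56%) and in the library labelled uterus (32.5 times, 4.16%). The background shares in cerebellum and brain were then 15.8% and 17.9%.

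miR-7a was raised in brain at 5.61 times its median of 110.2 RPM and in small intestine at 4.02 times, just past the minimum of 4. The shares of all names raised there were 23.9% and 5.5%. The call in small intestine was lost with a pseudocount of 10 RPM, with both arms of the hairpin summed, without the pancreas library and without the libraries labelled colon and ovary. The call in brain, at 4.10 times with miR-143 left out, was lost with median-of-ratios scaling and with the 5 most abundant names left out. Neither call of miR-7a passed a ratio of 8. miR-7a was not raised in pancreas on the scale of all reads.

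The ratio of members within a library is free of any total. In pancreas there were 2.82 reads of miR-375 (1.89–4.31) for each read of miR-7a, the highest ratio of all libraries. The library labelled uterus had 2.16 (2.02–2.30), stomach 1.16 (1.07–1.26), lung 0.723 (0.572–0.913) and small intestine 0.553 (0.526–0.582). The intervals of pancreas and the library labelled uterus overlap.

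In all but 1 of the remaining libraries with reads, miR-7a exceeded miR-375 beyond counting error. Heart had 3.08 reads of miR-7a (2.11–4.59) per read of miR-375, cerebellum 13.4 (8.33–23.1), kidney 22.0 (17.3–28.4), oesophagus 42.0 (23.3–84.7) and brain 66.2 (50.1–89.4). Liver had 321 (109–1558), on 3 reads of miR-375, and spleen had 535 reads of miR-7a to 1 of miR-375. The library labelled colon had 5 reads against 2, which counting error cannot separate. miRNAs are read whole and are of nearly equal length, but they differ in how well they enter a library. The ratio is therefore compared between libraries here, and not read as a ratio of molecules.

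The share of miR-7b among the miR-7a and miR-7b reads also ignores the total, and it split the tissues. It was 70.8% (67.5–73.9%) in cerebellum, 39.0% (37.7–40.4%) in brain and 34.6% (32.6–36.7%) in the library labelled uterus. Oesophagus had 14.1% (11.3–17.4%), small intestine 14.4% (13.4–15.4%), stomach 13.2% (11.4–15.1%) and heart 11.6% (6.66–18.5%). The first 3 libraries do not overlap with each other or with the other 4 within counting error, while those 4 overlap among themselves.

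Low shares of miR-7b were seen in lung at 4.84% (2.24–8.99%), kidney at 1.22% (0.736–1.90%) and liver at 0.517% (0.168–1.20%). Spleen had 0 of 535 reads, which allows a share of up to 0.561%. Pancreas, with 3 of 37 reads (8.11%, 1.70–21.9%), could not be told apart from heart, stomach, small intestine, oesophagus, lung, kidney or the library labelled colon. With all reads, kidney, liver and spleen each held more than 100 RPM of miR-7a beside these low shares. The library labelled uterus differed from small intestine in this share (34.6% against 14.4%), although both held much miR-215 and other intestinal miRNAs.

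**Figure D3:**
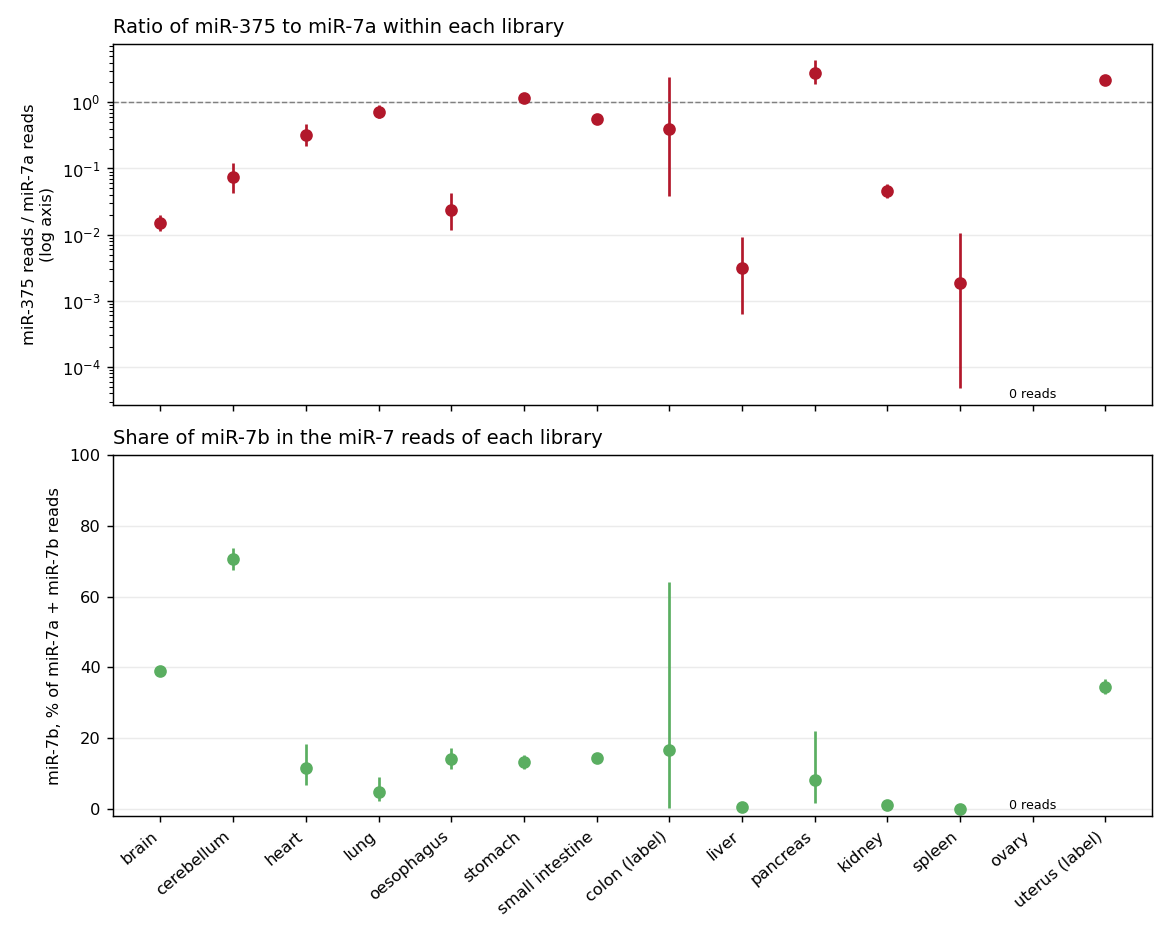
Top, reads of miR-375 per read of miR-7a in each library on a log axis, with exact conditional binomial 95% intervals and a dashed line at equal counts. Bottom, miR-7b as a percentage of miR-7a and miR-7b reads, with exact binomial 95% intervals. Pancreas, the library labelled uterus and stomach lie above 1 in the top panel, and cerebellum (70.8%) lies highest in the bottom panel, while ovary had no reads to plot.

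Pairs of neighbouring organs show the reach of these levels. miR-375 stood 326-fold (108–1610) higher in pancreas than in liver, which rests on 3 liver reads, and 319-fold (106–1575) higher with miR-143 left out. For miR-375, stomach exceeded oesophagus 75.0-fold (41.8–151) with all reads and 194-fold (108–390) with miR-143 left out. For miR-7b the fold of pancreas over liver, on 3 and 5 reads, was 5.98 (0.929–30.8) with miR-143 left out, so counting error did not separate them. The step from small intestine to the library labelled colon depended on miR-143 for all 3 miRNAs.

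With all reads, small intestine exceeded the library labelled colon 825-fold (228–6814) for miR-375, 596-fold (255–1837) for miR-7a and 501-fold (89.6–19806) for miR-7b. With miR-143 left out, the folds were 23.1 (6.37–190.5), 16.7 (7.13–51.3) and 14.0 (2.50–554). Small intestine was higher on both scales, on 2, 5 and 1 reads in the library labelled colon, and 86545 of its reads were not miR-143.

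Reads of the star arms can be assigned to a hairpin gene. Whether their numbers follow the output of each hairpin gene was not tested. miR-7a-1*, the arm unique to the Hnrnpk-intron hairpin printed above, had 496 reads over 13 libraries, and miR-7a-2* had 36 reads over 5. Brain held 250 and 22 of them, stomach 44 and 10, spleen 44 and 0, and lung 36 and 0. miR-7a-2* made up 18.5% (9.25–31.4%) of both star arms in stomach, 8.09% (5.14–12.0%) in brain and 0 of 44 in spleen, which allows a share of up to 6.82%. The limit for spleen lies below the interval of stomach and inside that of brain. The intervals of stomach and brain overlap.

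In relation to miR-7a itself, whose reads can come from either hairpin gene, miR-7a-1* varied widely between tissues. It made up 16.9% (12.1–22.6%) of the reads of the pair in lung and 15.6% (9.89–22.8%) in heart, against 7.60% (5.58–10.1%) in spleen and 7.02% (6.20–7.91%) in brain. In stomach the share was 3.72% (2.72–4.97%), under the uterus label 1.56% (0.983–2.36%), in small intestine 0.808% (0.560–1.13%), in kidney 0.710% (0.355–1.27%) and in liver 0.517% (0.168–1.20%). The interval of lung overlaps with none of these libraries except heart, and that of heart also meets the upper end of spleen. With all reads in the total, lung and heart were also the libraries with the least miR-7a apart from ovary and the library labelled colon, in which the star arm had 2 reads beside 5 of miR-7a.

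miR-7b* had 18 reads in all, of which 14 were in brain, 3 in stomach and 1 in the library labelled uterus. In cerebellum it had 0 reads beside 586 of miR-7b, which allows a share of up to 0.512%, while in brain it made up 0.656% (0.359–1.10%). The difference between these tissues was not detectable at this depth. In small intestine there were 0 reads of miR-7b* beside 701 of miR-7b.

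**Figure D4:**
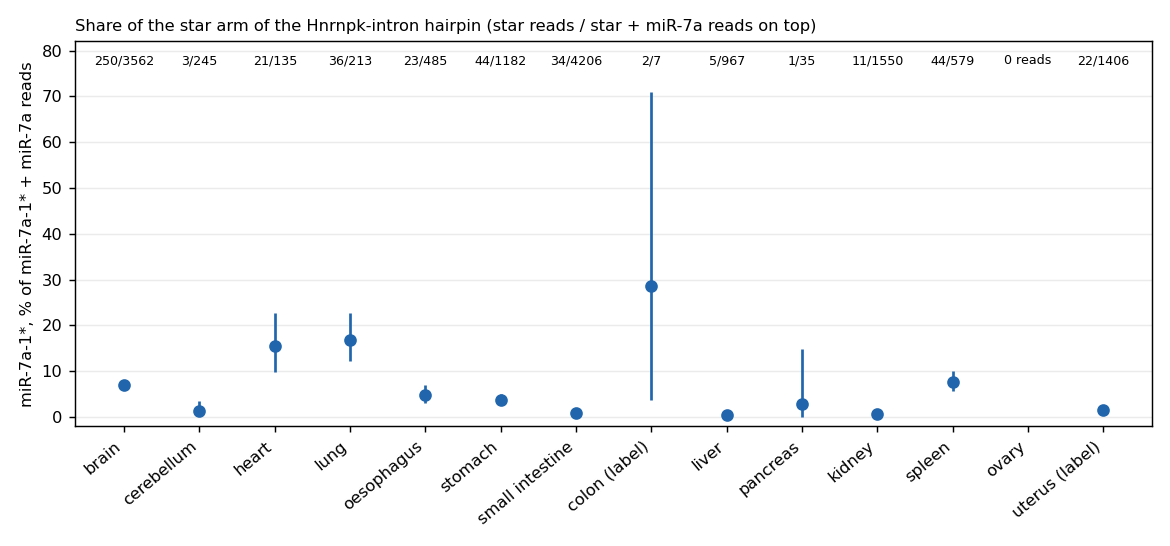
Reads of miR-7a-1*, the star arm of the hairpin in the Hnrnpk intron, as a percentage of miR-7a-1* and miR-7a reads in each library, with exact binomial 95% intervals and the read numbers on top. Lung (16.9%) and heart (15.6%) lie above brain (7.02%) and spleen (7.60%), and liver, kidney and small intestine lie below 1%.

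The names most like each member were taken by Spearman's rho over the 14 libraries, among the 417 other names at 10 RPM or more somewhere. All names come from the same 14 libraries, with their depth and their miR-143 share in common, so the values are a description and carry no test. For miR-375 the closest were miR-182 (0.829), miR-96 (0.806), miR-200a* (0.778), miR-217 (0.763) and miR-7b (0.748). miR-182 and miR-96 come from a cluster known from sensory cells. miR-200a* comes from an epithelial hairpin, and miR-217 is known from pancreatic acinar cells.

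The profile of miR-182 had its highest level, 2294 RPM, in the same library as miR-375, that labelled uterus, with 1788 RPM in small intestine, 1757 RPM in lung, 1619 RPM in pancreas, 1094 RPM in stomach and 972 RPM in kidney. Lung and kidney, where miR-375 held 21.6 and 7.58 RPM, thus held miR-182 near the levels of pancreas and stomach. In spleen miR-182 held 92.3 RPM, where miR-375 had 1 read. miR-182 and miR-217 stayed among the closest 5 with miR-143 left out, at 0.793 and 0.767.

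For miR-7b the closest were miR-1224 (0.939), miR-129-5p (0.928), miR-3099 (0.926), miR-370 (0.922) and miR-127* (0.911). All 5 were highest in cerebellum, as miR-7b was, and 3 of them stayed among the closest 5 with miR-143 left out. In small intestine and the library labelled uterus all 5 were lower than miR-7b. In small intestine, where miR-7b held 75.0 RPM, miR-1224 held 1.61, miR-370 1.18, miR-127* 2.25 and miR-129-5p 10.3 RPM.

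For miR-7a the closest were miR-873 (0.840), miR-9* (0.838), miR-340-5p (0.833), miR-323-3p (0.824) and miR-9 (0.824), each highest in brain. Only miR-323-3p stayed among the closest 5 with miR-143 left out, and none did by Pearson's r on log2(RPM + 1), where miR-29b came first (0.883). The likeness list of miR-7a thus depended on the measure, and miR-873 came 280th by Pearson's r. miR-873 had 919 reads in brain and 18 in cerebellum, but at most 2 in any other library. miR-323-3p had 499 and 16 reads in the same libraries, and at most 10 in any other. Outside brain and cerebellum, the order of these names thus rests on ties at 0 and on differences of a few reads. Among the members, rho was 0.748 for miR-375 with miR-7b, 0.706 for miR-7a with miR-7b and 0.503 for miR-375 with miR-7a, and 0.647, 0.574 and 0.429 with miR-143 left out.

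**Figure D5:**
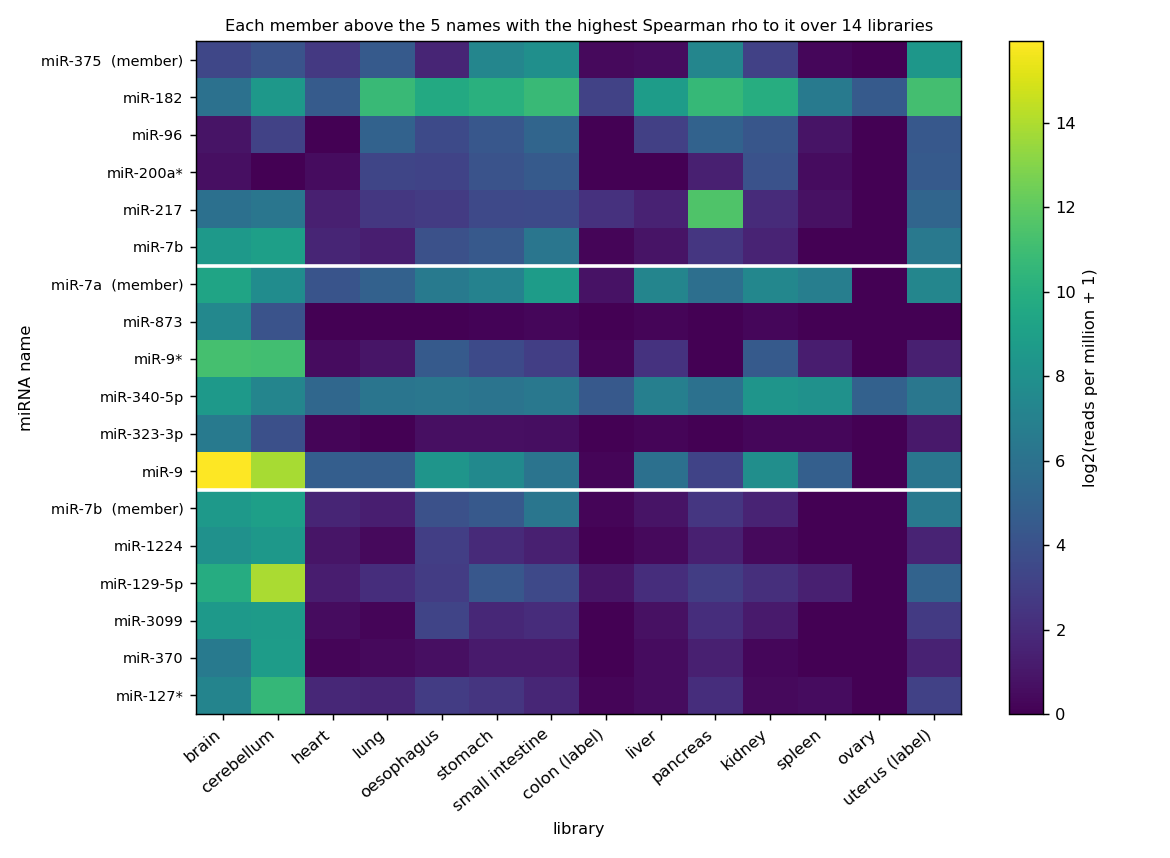
Level of each member and of the 5 names with the highest Spearman rho to it, as log2(RPM + 1) by colour, with names in rows and the 14 libraries in columns. The names listed under miR-7b share its high levels in brain and cerebellum but are darker in small intestine and the library labelled uterus.

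Of 16 other names described in islet or endocrine cells, 14 were in the table. In pancreas 1 of the 14 was raised, miR-184, a miRNA described in islet cells, at 534 RPM (background share 2.87%), and none was lowered (9.81% of all names were, by the same ratio in the opposite direction). The highest levels there were those of miR-26a at 1847 RPM, miR-182 at 1619 RPM, miR-29a at 1596 RPM and miR-24 at 1525 RPM, while miR-204, miR-211, miR-376a and miR-132 had 0 reads. The median of the 14 log2 ratios to the other libraries was -0.12, against -1.05 over all 418 names. miR-184 was again the name raised in pancreas with miR-143 left out (background share 1.97%), and the medians were -0.86 and -1.95.

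In brain 7 of the 14 were raised (background share 23.9%), among them miR-184 at 1060 RPM and miR-29a at 7822 RPM, and miR-182 and miR-183 were lowered (background share 3.35%). In small intestine and in the library labelled uterus, 2 of the 14 were raised, miR-182 and miR-183 in both (background shares 5.5% and 3.83%). In stomach 1 was raised, miR-184 at 221 RPM (background share 5.5%), and with miR-143 left out 4 were, namely miR-184, miR-182, miR-183 and miR-29b (background share 9.41%). In cerebellum 4 were raised, among them miR-204 at 119 RPM, a share of the 14 near the background of 21.1%. Calls were not confined to these libraries. With all reads in the total, 3 were raised in kidney (miR-30d, miR-29b and miR-29c) and 3 in lung (miR-183, miR-30d and miR-26a). miR-184 was also raised in spleen, and miR-183 in oesophagus. The shares of all names raised in kidney, lung, spleen and oesophagus were not computed, so these calls cannot be set against a background.

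Markers of other cell types differed between the libraries in which miR-375 was high. The acinar list (miR-216a, miR-216b, miR-217 and miR-148a) was raised in pancreas for 4 of 4 names, against 2.87% of all names, and its sum was 629301 RPM there and 6164 to 10544 RPM in the other 3. Nearly all of each sum was miR-148a, at 625591 RPM in pancreas, 10525 in stomach, 8078 under the uterus label and 6146 in small intestine. miR-148a was also raised in stomach (background share 5.5%). miR-217 held 2967 RPM in pancreas and 10.7 to 35.4 RPM in the other 3. The 5 miR-200 family names, known from epithelium, were all raised in stomach, small intestine and the library labelled uterus, at sums of 5960 to 13738 RPM, where 3.83% to 5.5% of all names were raised. In pancreas the family summed to 1164 RPM with 2 of 5 raised, and with miR-143 left out 0 of 5 were. With all reads in the total, kidney (8290 RPM) and oesophagus (6133 RPM) held as much of this family as stomach did, beside 7.58 and 2.09 RPM of miR-375. The 3 intestinal names were all raised in small intestine (background share 5.5%) and in the library labelled uterus (3.83%). In stomach they summed to 6719 RPM, with miR-192 raised (background share 5.5%), and with miR-143 left out all 3 were raised there (9.41%). In pancreas they summed to 526 RPM and none was raised. None of these markers had 0 reads in the 4 libraries, and their part in the level of miR-375 was not tested.

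The neuronal list (miR-9, miR-124, miR-128, miR-132, miR-137, miR-138 and miR-153) was raised for 7 of 7 names in brain and 5 of 7 in cerebellum, at sums of 88641 and 46047 RPM, where 23.9% and 21.1% of all names were raised. In the library labelled uterus and in small intestine, where miR-7b came next, it summed to 189 and 211 RPM with 0 of 7 raised. With miR-143 left out miR-138 was raised in small intestine (background share 6.56%). Oesophagus held 531 RPM of the list and stomach 375 RPM, beside 14.5 and 20.5 RPM of miR-7b. With all reads, miR-138 was raised in stomach (background share 5.5%), and with miR-143 left out miR-9 and miR-138 were (9.41%). In oesophagus miR-9 was raised on both scales, and the share of all names raised there was not computed. The sum was lower in small intestine, with 75.0 RPM of miR-7b, than in oesophagus, where miR-9 alone held 312 RPM. miR-9, miR-124, miR-128 and miR-138 were lower in small intestine. miR-137 (21.4 against 4.95 RPM), miR-132 (10.9 against 9.90) and miR-153 (2.46 against 0) were higher there. With miR-143 left out, the median log2 ratio of the list to the other libraries was 1.22 in small intestine and 0.17 in oesophagus. It was 1.48 under the uterus label and 2.60 in stomach. In pancreas the list summed to 33.8 RPM, and miR-132 and miR-137 had 0 reads. The part of neurons in the levels of miR-7a and miR-7b was not tested.

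The label of these miRNAs as endocrine met the data in part. miR-375 was raised in pancreas, stomach and small intestine, which hold endocrine cells, but the part of these cells in its level was not tested. Ovary had 0 reads of miR-375, the library labelled colon had 2, and lung, at 21.6 RPM, was not raised. With all reads in the total, miR-375 had its highest level in a library labelled uterus that also held intestinal miRNAs. With median-of-ratios scaling its highest level was in pancreas. miR-7b had only 3 reads in pancreas, at 4.82 RPM (0.994–14.1) against a median of 3.49 RPM over the libraries. Counting error did not separate its level from that median, and with median-of-ratios scaling it was 15.0 against 3.91 scaled RPM. Whether miR-7a in pancreas lay above or below its median over the libraries depended on the scaling. The labels name whole organs, and neither pituitary nor isolated islets are among the 14 libraries.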

How the data were processed

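Small RNA was sequenced from 14 mouse tissues, 1 pooled library each. The values are read counts per mature miRNA name, deposited by the authors as whole numbers. Per the labels' protocols, RNA was extracted with Trizol and libraries followed standard Illumina procedures. Trimming, aligner, build and miRNA release were not given in the sources used here.

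Counts were divided by the library total, with and without miR-143, and multiplied by 1000000 (RPM). Intervals are exact Poisson for RPM, exact Clopper-Pearson for shares and exact conditional binomial for folds, at 95%. A count of 0 allows up to 3 reads. The counts carry no molecular identifiers, and intervals and limits cover counting error only. At 1 read, RPM is 1.61 in pancreas and 0.107 in small intestine. Rules of size replaced tests and were tested on simulated data. Lowered mirrors raised, on the median of the other libraries, and was added after the data were seen.

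Median-of-ratios factors (over 162 names with reads everywhere) moved a library by between -1.75 (kidney) and 4.21 (library labelled colon) on the log2 scale. Other alternatives were totals without the 5 most abundant names, summed arms, a pseudocount of 10 RPM, a minimum of 50 RPM, ratios of 8 and 10, and left-out libraries. Chosen after seeing the data were totals without miR-143 and miR-148a, and leaving out pancreas.

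The members and lists were chosen with earlier results of these data known. Named are the members, names of their hairpins or seed, the marker lists and the 5 names most like each member. The hepatocyte, striated muscle, smooth muscle and white blood cell lists had their highest sums in liver, oesophagus, the library labelled colon and spleen (437407, 322362, 987042 and 13877 RPM). Heart was close to oesophagus for striated muscle, at 320047 RPM. The smooth muscle sum under the colon label was nearly all miR-143 (98.7% of reads). The other name of that list, miR-145, was lowered there with all reads, and the share of all names lowered there was not computed. Python 3.11.15, pandas 2.3.3, numpy 2.4.6 and scipy 1.17.1 were used.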

Additional observations from a re-analysis of the deposited data

How the results depend on the processing

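No paired analysis was possible because each tissue has 1 library. The number of tissue-enriched members (0) and of members with tau at 0.85 or more (0) did not change under any alternative run, with tau between 0.515 and 0.722 for miR-375, 0.278 and 0.497 for miR-7a, and 0.532 and 0.784 for miR-7b. The number of raised calls (8 pairs of member and library) ranged from 6 to 10. The fold of brain over small intestine for miR-7a (1.39) turned to 0.691 where totals left out miR-143, 0.613 under median-of-ratios scaling, 0.532 where totals left out the top 5 names and 0.682 where they left out miR-143 and miR-148a, and was 1.50 with both arms summed. The fold of the library labelled uterus over small intestine for miR-375 (1.39) became 1.49, 1.53, 1.52 and 1.50 under the same 4 scalings, and under median-of-ratios scaling pancreas stood above both. The fold of cerebellum over brain for miR-7b (1.29) became 1.64 under median-of-ratios scaling and 1.58 where totals left out the top 5 names. These follow from the totals by construction. Of the 42 levels, 24 left their counting interval where totals left out miR-143. Depth limits ovary (0 reads of every member), the library labelled colon (2, 5 and 1 reads) and pancreas (96, 34 and 3 reads of miR-375, miR-7a and miR-7b). Without the library labelled uterus no fold of it could be had, and small intestine then led for miR-375.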
